A study of Homo sapiens with 6 samples.

Results

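The MARCH family, named for membrane-associated RING-CH proteins, was followed through 8 of its genes, MARCH2 to MARCH9. Each was taken by its symbol from a table of 19437 genes, where each had a single entry, and all 8 passed the filter used for testing (13640 genes that reached 1 CPM in 3 or more libraries), each of them reaching 1 CPM in every library. The family was chosen with its values in these libraries already known, so the levels of its members in TEADi and GFP are described here and carry no test. Poly(A) RNA was sequenced from SCC9, a human cell line of oral squamous carcinoma origin. The cells carried an adenovirus for TEADi, a protein inhibitor of the TEAD transcription factors according to the labels, or one for green fluorescent protein (GFP), the control. Both groups received virus at a multiplicity of infection of 25 in medium with serum and hydrocortisone, and were harvested 48 h later. Libraries carry the letters A to C, 3 per group. Separate cultures are not described beyond triplicate transduction, and p-values therefore cover the spread among these libraries alone, which may be technical.

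MARCH proteins are E3 ubiquitin ligases. A RING-CH zinc finger recruits a ubiquitin-charged E2 enzyme, and in most members transmembrane segments next to it place the ligase beside other membrane proteins, which are then ubiquitinated and sent to lysosomes or, from the endoplasmic reticulum, to the proteasome. MARCH4 and MARCH9 act in the Golgi and endosomes and lower MHC class I and other surface proteins when overexpressed, MARCH2 and MARCH3 are endosomal relatives of each other, and MARCH8 removes surface receptors. MARCH5 sits in the outer mitochondrial membrane, MARCH6 in the endoplasmic reticulum, and MARCH7, also called axotrophin, lacks transmembrane segments.

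The stretches that code for the RING-CH finger are shown because they set apart MARCH4 with MARCH9 and MARCH3 with MARCH2 among the 8 members. The results below turn on these pairs, and MARCH1, MARCH10 and MARCH11 were not compared. The stretches were read from transcripts of GENCODE release 29 (GRCh38), 5′ to 3′ on the coding strand. They run from the codon of the first zinc-binding residue to that of the last. Capitals mark the 8 codons of the cysteines and the histidine that hold zinc.
MARCH4: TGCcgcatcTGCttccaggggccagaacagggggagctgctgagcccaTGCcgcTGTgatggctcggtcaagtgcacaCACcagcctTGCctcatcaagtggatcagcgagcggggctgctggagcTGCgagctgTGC
MARCH9: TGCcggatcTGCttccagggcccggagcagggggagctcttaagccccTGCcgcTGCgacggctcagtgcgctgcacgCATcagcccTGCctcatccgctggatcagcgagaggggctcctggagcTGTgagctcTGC
MARCH3: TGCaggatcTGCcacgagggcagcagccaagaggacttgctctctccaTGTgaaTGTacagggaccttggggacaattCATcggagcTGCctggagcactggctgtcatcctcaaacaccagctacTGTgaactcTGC
MARCH2: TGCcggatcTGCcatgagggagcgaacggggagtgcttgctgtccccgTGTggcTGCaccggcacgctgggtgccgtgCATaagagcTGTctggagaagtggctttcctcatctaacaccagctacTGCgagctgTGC
Over these 138 bases MARCH4 and MARCH9 were 81.9% identical, and MARCH3 and MARCH2 were 71.7% identical. The other 26 pairs among the 8 members were between 45.7% and 64.3% identical over their aligned bases. The longest run of bases shared by the transcripts of MARCH4 and MARCH9 was 20 bases, and that of MARCH3 and MARCH2 was 14 bases. Longer runs were shared outside these pairs, 38 bases by MARCH3 and MARCH5 and 29 bases by MARCH2 and MARCH8.

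Values were reads scaled by the authors to library size with TMM factors (CPM). Their totals were 827124 to 873465 per TEADi library and 887396 to 915558 per GFP library, and dividing a total by the smallest value of its library, the nearest measure of depth, gave 9589768 to 15380584. ANKRD1, a canonical target of TEAD with its co-activators YAP1 and TAZ, averaged 1.82 ± 0.102 CPM in TEADi and 80.0 ± 4.38 CPM in GFP libraries (SD, n = 3 each, here and below). The related targets CYR61 and CTGF averaged 79.5 ± 5.41 and 16.5 ± 1.35 CPM in TEADi, against 496 ± 77.8 and 26.5 ± 4.93 CPM in GFP. Of 5 epithelial markers 3 passed the filter, all lower in TEADi. KRT8 was at 96.9 to 106 CPM in TEADi and 188 to 228 CPM in GFP libraries. KRT18 was at 58.6 to 62.8 CPM in TEADi and 75.4 to 82.1 CPM in GFP libraries, and EPCAM at 1.38 to 2.11 CPM in TEADi and 2.21 to 3.41 CPM in GFP libraries. KRT19 and CDH1 did not pass, at no more than 0.181 CPM in any TEADi library and at 0.138 and 0.276 CPM in GFP library C, against 1.21 to 1.90 CPM in GFP libraries A and B. Of the basal markers KRT5, KRT14, TP63 and COL17A1 only COL17A1 passed the filter. The summed level of these 4 was 0.863 to 1.21 CPM in TEADi libraries and 2.48 to 38.0 CPM in GFP libraries, with GFP libraries A and B high (KRT5 at 21.7 and 17.2 CPM) and GFP library C low (0.414 CPM). The summed level of 5 mesenchymal markers, led by VIM, was 1537 to 1633 CPM in TEADi and 2150 to 2209 CPM in GFP libraries. Among them PDGFRA went the other way, at 17.2, 20.6 and 17.6 CPM in TEADi libraries, against 1.19, 1.29 and 1.30 CPM in GFP libraries, and the groups of COL1A2 overlapped. Of blood markers the table held CD14, at 1.15 to 1.81 CPM in TEADi and 0.227 to 0.417 CPM in GFP libraries, and the endothelial marker CDH5 stayed at or below 0.238 CPM in all libraries. The part of these marker differences in the results below was not tested, and values without GFP libraries A and B are given for members whose log2 fold change moved by over 0.1 and for lists whose counts moved by over 1.5 times and named genes that lost their call.

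MARCH4 showed the widest difference of the family. It stood at 1.98, 2.23 and 1.81 CPM in TEADi libraries (A to C), against 47.2, 40.6 and 45.0 CPM in GFP libraries (A to C). All TEADi libraries were low and all GFP libraries high, with a gap of 38.3 CPM between the nearest values. The means were 2.01 ± 0.211 CPM in TEADi and 44.3 ± 3.39 CPM in GFP, a 22.0-fold lower level in TEADi and a fitted log2 fold change of -3.91 ± 0.11 (SE). Only ANKRD1 had a lower fitted value among all 13640 genes tested, so MARCH4 ranked 2 from the lowest. In bulk RNA, fewer cells with a transcript and less of it per cell cannot be told apart. The remaining MARCH4 signal came to 23, 31 and 30 times the smallest value in TEADi libraries (A to C), against 793, 535 and 653 times in GFP libraries. The gene lies on chromosome 2 (hg19, 217122588 to 217236750, minus strand), and no other gene of the table overlaps it.

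MARCH9, the closest relative of MARCH4 in the RING-CH stretch among the members followed, lay in the other direction. It stood at 4.66, 5.83 and 4.46 CPM in TEADi libraries (A to C), against 3.15, 2.88 and 1.93 CPM in GFP libraries. The groups did not overlap, but the gap was only 1.31 CPM and the spread was wide (4.98 ± 0.737 CPM in TEADi and 2.66 ± 0.642 CPM in GFP). The level was 1.88-fold higher in TEADi, with a log2 fold change of 0.72 ± 0.16 (SE), and 1.02 without GFP libraries A and B, which were above GFP library C. MARCH9 lies on chromosome 12 (hg19, 58148881 to 58154190, plus strand) and shares 916 bases with CDK4, a cell cycle kinase gene on the other strand. CDK4 stood at 155, 154 and 159 CPM in TEADi libraries, against 306, 250 and 236 CPM in GFP libraries. Its mean was 31.4 times that of MARCH9 in TEADi and 99.3 times in GFP. Whether reads of CDK4 entered the MARCH9 values was not tested. Whether counting used strand is not given in the sources used here.

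The second related pair was split in the same way. MARCH3 stood at 5.09, 4.17 and 4.52 CPM in TEADi libraries (A to C), against 16.0, 16.5 and 15.1 CPM in GFP libraries. Its GFP libraries were all high and close together. The means were 4.59 ± 0.463 CPM in TEADi and 15.9 ± 0.689 CPM in GFP, 3.45-fold lower in TEADi (log2 fold change -1.59 ± 0.12, SE), rank 92 from the lowest. MARCH2 stood at 5.87, 5.32 and 5.91 CPM in TEADi libraries (A to C), against 3.45, 2.27 and 2.48 CPM in GFP libraries. All of its TEADi libraries lay above all GFP libraries, and GFP library A was the highest of its group. The means were 5.70 ± 0.327 CPM in TEADi and 2.74 ± 0.629 CPM in GFP, 2.08-fold higher in TEADi (log2 fold change 0.85 ± 0.15, SE). MARCH3 lies on chromosome 5 (hg19, 126203406 to 126366500, minus strand) and MARCH2 on chromosome 19 (8478154 to 8503901, plus strand), both clear of other genes in the table.

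**Figure D1:**
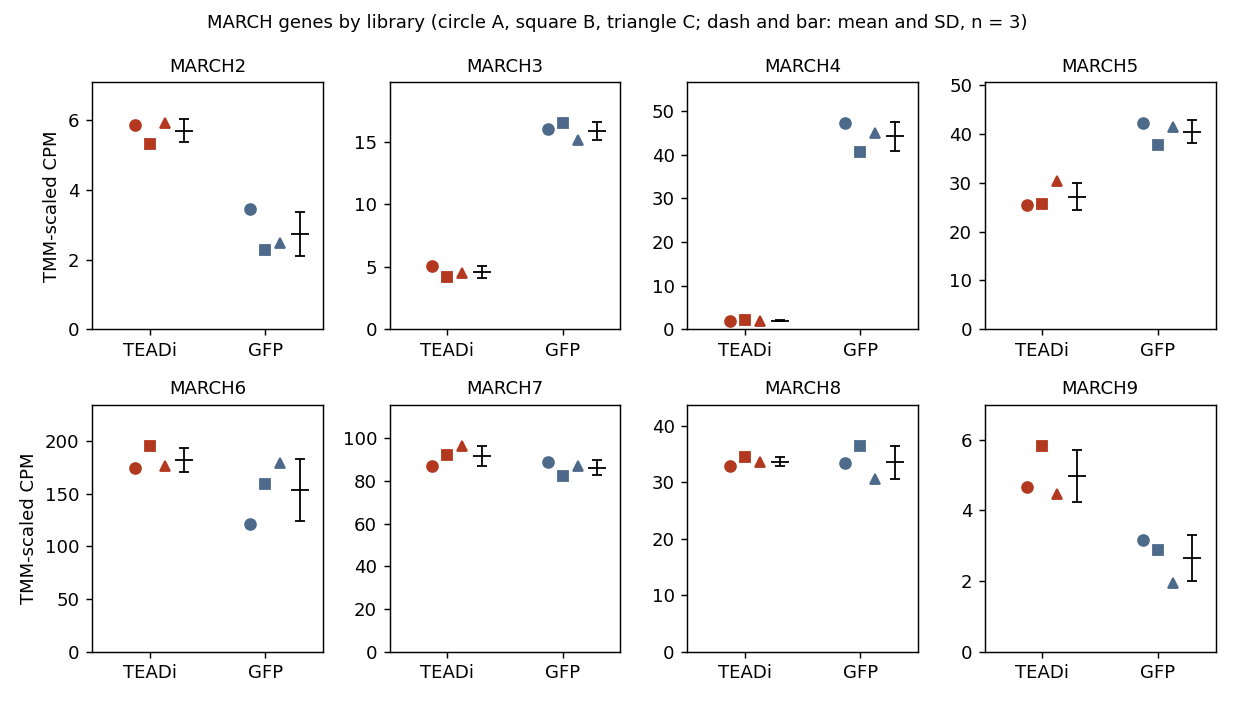
TMM-scaled CPM (vertical axes, from 0, one scale per panel) of the 8 MARCH genes in each library, with TEADi left of GFP; circles, squares and triangles are libraries A, B and C, and the dash and bar give the mean and SD of 3 libraries. MARCH4 sits between 1.81 and 2.23 CPM in TEADi libraries, against 40.6 to 47.2 CPM in GFP libraries, while the groups of MARCH6, MARCH7 and MARCH8 overlap.

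Set per length, the members of each pair stood in opposite order in the 2 groups. In CPM per kb of exon, MARCH4 was at 0.451 ± 0.0475 and MARCH9 at 1.38 ± 0.205 in TEADi libraries, against 9.95 ± 0.761 for MARCH4 and 0.737 ± 0.178 for MARCH9 in GFP libraries. The per-length levels of MARCH3 and MARCH2 were 1.03 ± 0.104 and 3.13 ± 0.180 CPM per kb in TEADi libraries, and 3.55 ± 0.154 and 1.51 ± 0.346 CPM per kb in GFP libraries. In both pairs the ranges of the 2 genes stood apart within each group. In TEADi the order of all members per length, high to low, was MARCH6, MARCH7, MARCH5, MARCH8, MARCH2, MARCH9, MARCH3 and MARCH4, whereas in GFP it was MARCH6, MARCH7, MARCH5, MARCH4, MARCH8, MARCH3, MARCH2 and MARCH9. Among neighbours in these orders the library ranges met in GFP, for MARCH6 and MARCH7 and for MARCH5 and MARCH4, and for no neighbours in TEADi. Lengths were the exon bases of the GENCODE transcripts, 1.82 kb for MARCH2 and 9.84 kb for MARCH6 at the extremes, and which transcripts SCC9 cells use was not tested.

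**Figure D2:**
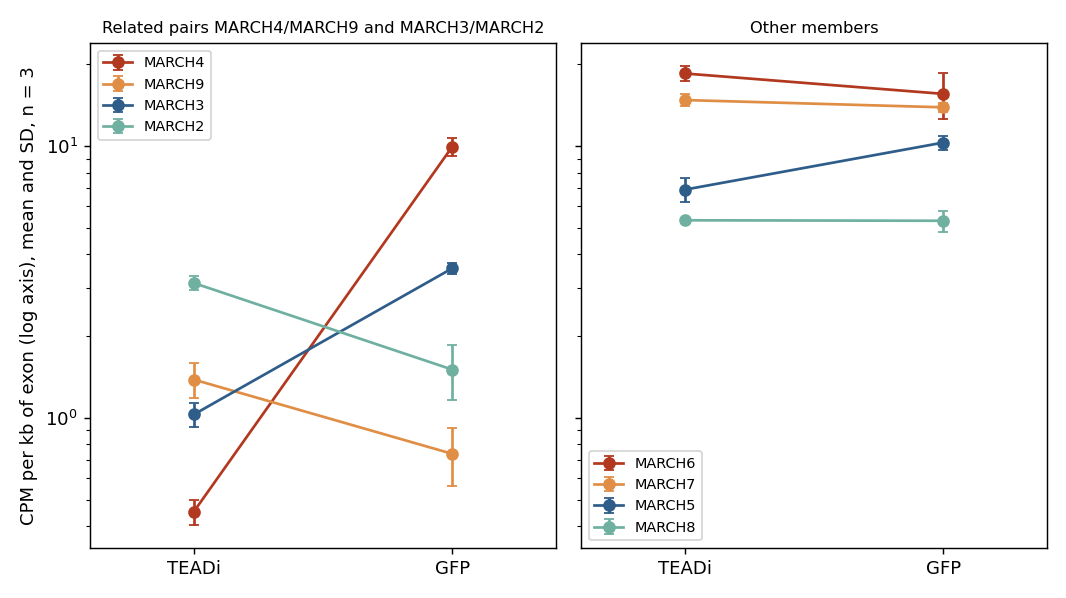
Mean level and SD (n = 3) in CPM per kb of exon, on a log axis, in TEADi (left of each panel) and GFP (right). The lines of MARCH4 and MARCH9, and those of MARCH3 and MARCH2, cross between the groups, while MARCH6 stays the highest of the other members at 18.5 CPM per kb in TEADi and 15.6 CPM per kb in GFP.

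MARCH5, the mitochondrial member, which acts on the fission and fusion proteins of the outer membrane, was lower in TEADi by a smaller amount. It stood at 25.5, 25.7 and 30.3 CPM in TEADi libraries (A to C), against 42.1, 37.8 and 41.5 CPM in GFP libraries. The groups did not overlap, and the TEADi level was 67.1% of the GFP level (27.2 ± 2.70 CPM in TEADi and 40.5 ± 2.37 CPM in GFP; log2 fold change -0.56 ± 0.09, SE). MARCH5 lies on chromosome 10 (hg19, 94050920 to 94113721, plus strand).

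The remaining members had overlapping groups. MARCH6, which in the endoplasmic reticulum degrades the sterol enzyme squalene epoxidase and is the human counterpart of yeast Doa10, stood at 175, 195 and 176 CPM in TEADi libraries (A to C), against 121, 159 and 179 CPM in GFP libraries. GFP library A was far below GFP library C, which exceeded TEADi libraries A and C. The log2 fold change was 0.26 ± 0.10 (SE) with all libraries, 0.11 without GFP library A, 0.39 without GFP library C and 0.02 without GFP libraries A and B. MARCH6 lies on chromosome 5 (hg19, 10353815 to 10440500, plus strand) and MARCH7 on chromosome 2 (160569000 to 160627538, plus strand). MARCH7 stood at 86.9, 92.1 and 96.5 CPM in TEADi libraries, against 89.2, 82.6 and 87.3 CPM in GFP libraries (log2 fold change 0.09 ± 0.07, SE). Its 3' end shares 2175 bases with CD302, a lectin receptor gene on the other strand, which averaged 37.6 ± 1.61 CPM in TEADi and 28.5 ± 2.26 CPM in GFP. MARCH8, a ligase of endosomes and the cell surface, stood at 32.9, 34.5 and 33.5 CPM in TEADi libraries, against 33.5, 36.5 and 30.6 CPM in GFP libraries (log2 fold change 0.01 ± 0.08, SE). Its levels in TEADi lay inside the range of the GFP libraries, and its sign turned without GFP library C (-0.05) or TEADi library B (-0.01), with 0.13 without GFP libraries A and B. The table lists MARCH8 on an alternate sequence of chromosome 10 and not on the chromosome itself, so reads that fit both places could have been split.

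Across the family 5 of 8 members had groups that did not overlap, MARCH2 and MARCH9 higher and MARCH3, MARCH4 and MARCH5 lower in TEADi, and the same held for 65.8% of all genes tested (27.7% higher and 38.1% lower). A fitted change of at least 2-fold was found for 2 members, MARCH3 and MARCH4, both lower, against 7.95% of all genes in either direction and 2.89% lower. With a pseudocount of 0.1 MARCH2, at a log2 fold change of 1.05, would join them as higher. Without GFP libraries A and B MARCH9 would join as higher too, at 1.02. The family was chosen on this contrast, so nothing is read from these counts. The median log2 fold change was 0.05 over the members and -0.07 over all genes tested. The ratios in the authors' deposited table, such as 0.0454 for MARCH4 and 1.88 for MARCH9, equal these ratios of means to the digits printed. The sign of each member but MARCH8 was the same under every alternative scaling, pseudocount, filter and left-out library tried. MARCH9 had no value with a filter of 5 CPM, which it did not pass. For MARCH6 and MARCH7, whose groups overlapped, the log2 fold change fell as low as 0.02 and 0.05.

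**Figure D3:**
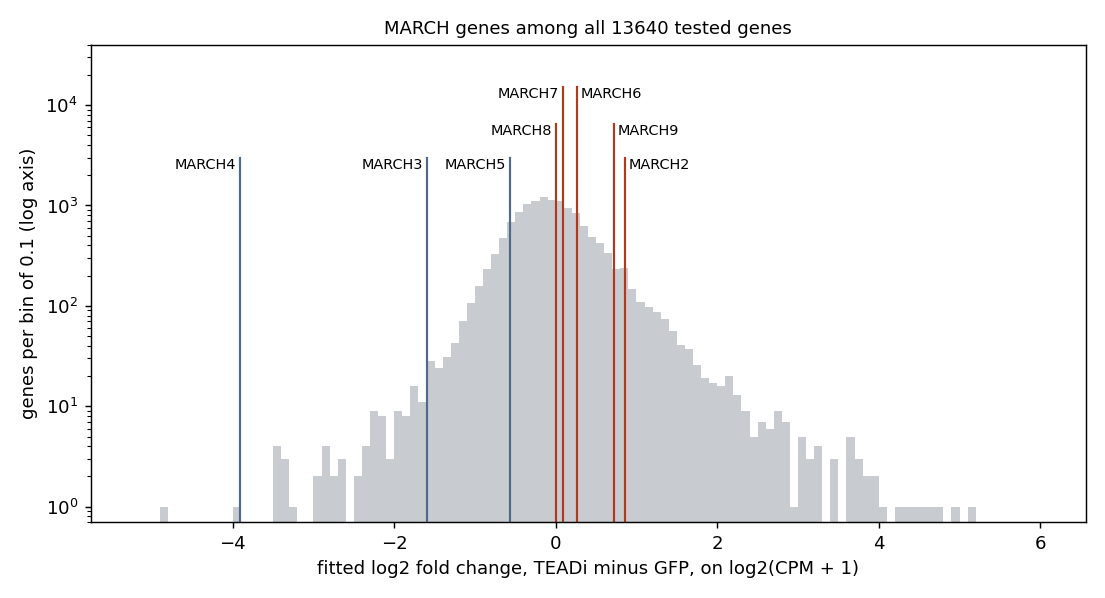
Number of genes (log axis) by fitted log2 fold change, TEADi minus GFP, in bins of 0.1 for all 13640 genes tested, with a line at each MARCH gene, blue where lower and red where higher in TEADi. MARCH4 stands alone near the low end at -3.91, MARCH3 at -1.59, and the other members lie between -0.56 and 0.85.

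The genes whose profile was most like that of MARCH4 over the 6 libraries, among 9248 genes averaging at least 10 CPM, were PLK2, a stress-induced kinase, DDAH1, which breaks down methylarginines, and NEXN, an actin-binding protein. Their Pearson r with MARCH4 on log2(CPM + 1) was 0.9998, 0.9997 and 0.9996. PLK2 averaged 10.7 ± 1.11 CPM in TEADi and 126 ± 7.04 CPM in GFP, and DDAH1 averaged 23.0 ± 1.08 CPM in TEADi and 119 ± 8.33 CPM in GFP. For MARCH3 the most like were BCS1L, an assembly factor of respiratory complex III, the transcription factor MITF and the lymphatic growth factor VEGFC, with r of 0.9993, 0.9988 and 0.9985. They were 1.65-fold, 5.76-fold and 2.42-fold lower in TEADi, against 3.45-fold for MARCH3, so a high r does not mean a difference of the same size. These r describe 6 libraries in 2 groups and include the difference between the groups, and 415 genes for MARCH4 and 227 for MARCH3 had r over 0.99.

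Promoter windows of 250 bases before to 50 after the annotated start (RefSeq, GRCh38.p14) were matched for 7 of the 8 members, all but MARCH6, and gave 10 windows. The windows of MARCH4 and MARCH9 are shown because these related genes differed in opposite directions, with capitals for the 50 bases after the start.
MARCH4, chr2:216372434-216372733, minus strand: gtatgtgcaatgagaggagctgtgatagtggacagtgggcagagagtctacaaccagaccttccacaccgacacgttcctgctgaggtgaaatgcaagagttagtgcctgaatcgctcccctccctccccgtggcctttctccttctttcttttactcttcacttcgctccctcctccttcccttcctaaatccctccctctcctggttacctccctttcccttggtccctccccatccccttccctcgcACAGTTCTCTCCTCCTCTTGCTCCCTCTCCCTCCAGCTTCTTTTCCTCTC
MARCH9, chr12:57754853-57755152, plus strand: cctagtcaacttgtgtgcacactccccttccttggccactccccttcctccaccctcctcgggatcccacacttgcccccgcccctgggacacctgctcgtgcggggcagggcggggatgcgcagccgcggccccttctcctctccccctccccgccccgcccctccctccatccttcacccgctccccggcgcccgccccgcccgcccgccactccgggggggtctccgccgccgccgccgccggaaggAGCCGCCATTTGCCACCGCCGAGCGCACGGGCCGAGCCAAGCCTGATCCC
The MARCH4 window holds 55.0% G and C and the MARCH9 window 75.3%. The letters GGAATG, the core that TEAD proteins bind, were searched on both strands and occur in 14.0% of all 35116 windows of this length. The AP-1 letters TGANTCA, which read the same on both strands, occur in 7.71%. Neither was found in any of the 10 windows of MARCH genes, which says only that these letters are not in these windows.

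Genes that work with or are acted on by MARCH ligases were described through 6 lists, which together held 147 different genes that could be tested. The lists were chosen with earlier results of these data known, so the p-values of their genes are descriptive and not independent tests. Of all genes tested, 60.8% passed the limma test (adjusted p under 0.05, Benjamini-Hochberg), 25.5% higher and 35.3% lower in TEADi. This split depended on the scaling, with 4184 genes higher and 4128 lower for equal totals and 4078 higher and 4243 lower for median-ratio factors, against 3482 higher and 4817 lower as deposited. Among the list genes 36 were higher and 54 lower as deposited, and 47 higher and 46 lower for equal totals. Among surface and endosomal proteins reported as MARCH substrates, 22 of 29 genes were tested, and 12 rose, 3 fell and 7 were not called (median log2 fold change 0.28). Calls made up 68.2% of those tested, with 54.5% higher and 13.6% lower, against 60.8%, 25.5% and 35.3% of all genes tested. CD55, which shields cells from complement, rose to 192 ± 9.43 CPM in TEADi, against 59.5 ± 2.67 CPM in GFP (adjusted p = 1.7e-12, limma). The MHC class I genes HLA-B (61.4 ± 0.763 CPM in TEADi and 30.1 ± 0.781 CPM in GFP) and HLA-C (126 ± 10.8 CPM in TEADi and 66.7 ± 3.17 CPM in GFP) rose as well, though reads of HLA genes can be shared between near-identical copies. ICAM1, an adhesion receptor lowered by overexpressed MARCH9 and named after its values were seen, averaged 500 CPM in TEADi and 279 CPM in GFP (adjusted p = 1.8e-07, limma). For all list genes these are RNA levels, and the action of the ligases on the proteins was not measured. Among those that fell were ALCAM, an adhesion molecule (118 ± 4.01 CPM in TEADi and 243 ± 9.72 CPM in GFP), and SLC3A2, the heavy chain of amino acid transporters (195 ± 10.0 CPM in TEADi and 274 ± 22.1 CPM in GFP).

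Around MARCH5, 19 genes of the outer mitochondrial membrane and its dynamics were tested, of which 9 fell, 3 rose and 7 were not called (median log2 fold change -0.17). The share called was 63.2%, with 47.4% lower and 15.8% higher, against 60.8%, 35.3% and 25.5% of all genes tested. The kinase PINK1 fell to 98.7 ± 6.62 CPM in TEADi, against 169 ± 14.6 CPM in GFP (adjusted p = 1.6e-07, limma). The mitofusin MFN2 (142 ± 5.10 CPM in TEADi and 200.1 ± 8.47 CPM in GFP) and the import receptor TOMM70A (143 ± 7.65 CPM in TEADi and 208 ± 15.6 CPM in GFP) fell too. MFN1, the fission GTPase DNM1L and FIS1 were picked from the list after their values were seen and are not all of the reported MARCH5 substrates. MFN1 and DNM1L also fell (log2 fold changes -0.45 and -0.24), and FIS1 was not called (-0.07). The genes that rose were the survival factor MCL1 (368 ± 19.6 CPM in TEADi and 216 ± 10.6 CPM in GFP), the antiviral adaptor MAVS (113 ± 6.10 CPM in TEADi and 96.7 ± 1.32 CPM in GFP) and the ligase PARK2 (2.99 ± 0.0867 CPM in TEADi and 1.32 ± 0.606 CPM in GFP). The PARK2 call was lost without GFP libraries A and B (log2 fold change 0.41 instead of 0.81, adjusted p = 0.114, limma), and that of MAVS without TEADi library C (adjusted p = 0.0507, limma).

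Around MARCH6, 22 genes of degradation at the endoplasmic reticulum and sterol control were tested, of which 8 fell, 7 rose and 7 were not called (median log2 fold change -0.03). The share called was 68.2%, with 36.4% lower and 31.8% higher, against 60.8%, 35.3% and 25.5% of all genes tested. UBE2J2, a membrane-anchored E2 enzyme that works with MARCH6, fell to 47.4 ± 1.81 CPM in TEADi, against 82.6 ± 9.30 CPM in GFP (adjusted p = 3.0e-07, limma). The deiodinase DIO2, a reported MARCH6 substrate, fell to 1.84 ± 0.312 CPM in TEADi, against 8.45 ± 0.554 CPM in GFP. The sterol sensors INSIG1 and INSIG2 went opposite ways, INSIG1 at 21.5 ± 0.591 CPM in TEADi and 49.8 ± 4.50 CPM in GFP, and INSIG2 at 31.1 ± 1.60 CPM in TEADi and 17.6 ± 0.260 CPM in GFP. SQLE, the squalene epoxidase gene, named after its values were seen, averaged 37.7 CPM in TEADi and 57.1 CPM in GFP (adjusted p = 9.5e-06, limma). Without GFP libraries A and B 4 genes of the list rose, and with quantile normalization 5 fell.

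Most enzymes upstream of the ligases were lower. Of 31 genes for ubiquitin, E1 and E2 enzymes, 21 fell, 3 rose and 7 were not called (median log2 fold change -0.26). The share called was 77.4%, with 67.7% lower and 9.68% higher, against 60.8%, 35.3% and 25.5% of all genes tested. UBE2J2 led the falls, followed by UBE2N, which builds lysine-linked signalling chains (89.0 ± 2.51 CPM in TEADi and 137 ± 13.1 CPM in GFP; adjusted p = 1.6e-06, limma), and UBE2G1 (72.9 ± 3.06 CPM in TEADi and 108 ± 7.40 CPM in GFP). The genes that rose were the E1 enzyme UBA1 (659 ± 29.6 CPM in TEADi and 439 ± 10.6 CPM in GFP), UBE2G2, an E2 enzyme of the endoplasmic reticulum (95.3 ± 4.36 CPM in TEADi and 81.4 ± 1.49 CPM in GFP), and UBE2L6, the E2 enzyme for ISG15 (27.1 ± 2.69 CPM in TEADi and 15.7 ± 1.89 CPM in GFP).

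Other membrane-anchored RING ligases split, with 9 of 29 rising, 5 falling and 15 not called (median log2 fold change 0.03), and 3 falling with equal totals, without TEADi library A, or without GFP libraries A and B. As deposited the share called was 48.3%, with 31.0% higher and 17.2% lower, against 60.8%, 25.5% and 35.3% of all genes tested. RNF144A rose to 3.13 ± 0.153 CPM in TEADi, against 0.502 ± 0.252 CPM in GFP (adjusted p = 9.7e-07, limma), while its relative RNF144B fell to 30.5 ± 1.71 CPM in TEADi, against 44.8 ± 2.94 CPM in GFP. SYVN1, the HRD1 ligase of the endoplasmic reticulum, rose to 119 ± 5.21 CPM in TEADi, against 75.8 ± 5.76 CPM in GFP, and overlaps FAU and MRPL49. RNF170 (11.1 ± 1.02 CPM in TEADi and 5.64 ± 0.558 CPM in GFP) rose too and overlaps HOOK3. Overlaps leave these levels uncertain, as they do for HLA-B (XXbac-BPG248L24.12), MCL1 (SNORA40), PINK1 (PINK1-AS), TOMM70A (LNP1) and UBA1 (INE1).

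The ESCRT machinery, which sorts ubiquitinated membrane proteins into vesicles for the lysosome, had a share of called genes that depended on the scaling. Of 31 genes 10 fell, 4 rose and 17 were not called (median log2 fold change -0.04), and no member changed 2-fold. The share called was 45.2% as deposited, with 12.9% higher and 32.3% lower, against 60.8%, 25.5% and 35.3% of all genes tested. VPS37B fell to 49.3 ± 3.06 CPM in TEADi, against 67.0 ± 1.18 CPM in GFP (adjusted p = 5.3e-05, limma), and CHMP2B and VTA1 fell by 0.43 and 0.36 on the log2 scale. The genes that rose were the ATPase VPS4B (103 ± 2.03 CPM in TEADi and 75.0 ± 8.41 CPM in GFP), STAM, CHMP2A and PDCD6IP, with log2 fold changes of 0.45, 0.31, 0.34 and 0.20. With equal totals 11 rose and 9 fell, with median-ratio factors 10 rose and 9 fell, and with quantile normalization 11 rose and 9 fell, so that most of the list was then called. Without GFP libraries A and B 6 genes fell. The PDCD6IP call was lost without TEADi library B or C or GFP library B (adjusted p from 0.0708 to 0.0934, limma), without both GFP libraries A and B (0.0595) and without the variance trend (0.0637).

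**Figure D4:**
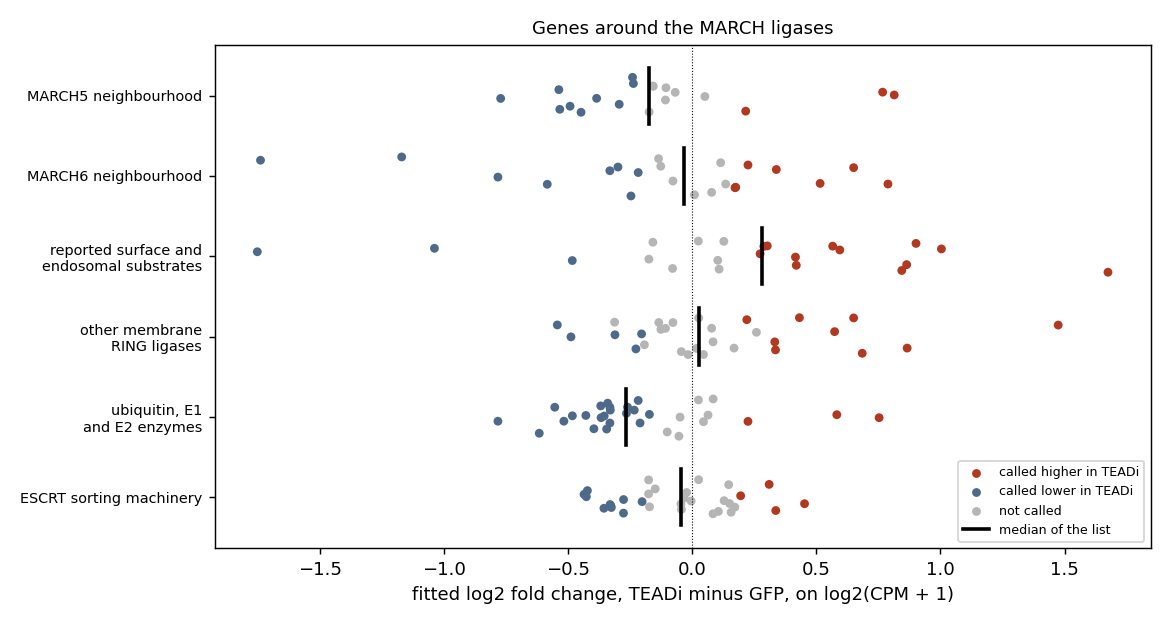
Fitted log2 fold change, TEADi minus GFP (horizontal axis), of each tested gene in 6 lists around the MARCH ligases, red where called higher and blue where called lower in TEADi by limma, grey where not called, with a bar at the median of each list. The medians run from -0.26 for ubiquitin, E1 and E2 enzymes to 0.28 for reported surface and endosomal substrates.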

How the data were processed

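RNA was taken from SCC9 cells and sequenced from poly(A) libraries, 3 with TEADi and 3 with GFP. The authors deposited CPM values scaled with TMM factors, and per the submitters' processing notes Trimmomatic 0.36, STAR 2.5.1, Partek 8.0.19.0819 and hg19 were used, with no role or order given. The counter and the use of strand are not given in the sources used here. The authors also deposited a table with a ratio of group means, copied for the members, and p-values, q-values and a signed fold-change score, which were not used here. No value is 0, and the smallest value of each library, shared by 1831 to 2157 entries, was treated as no reads. Of low values 87.7% to 88.4% lay within 0.1 of a whole multiple of it, too few for reads to be recovered, and no count test was run.

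Of 19921 entries, 905 shared 421 symbols and were summed above the smallest value, giving 19437 genes. Genes reaching 1 CPM in 3 or more libraries were tested as log2(CPM + 1), a scale that understates changes of low genes, with limma 3.58.1 in R 4.3.3 (lmFit, eBayes with a variance trend, two-sided, Benjamini-Hochberg over 13640 genes, threshold 0.05). All 6 libraries entered, without covariates, and the code was tested on simulated data. The members and lists were chosen with earlier results of these data known. Named list genes were up to 4 calls with the smallest p and, where 4 or fewer, the calls in the minority direction, of which 1 is not reported here. Fold differences are ratios of mean CPM. Exon lengths came from GENCODE release 29, and sequences were compared with Biopython 1.88. Tables and figures used Python 3.11.15, pandas 2.3.3, numpy 2.4.6 and matplotlib 3.10.9. Alternatives were other pseudocounts, scalings, filters, merging, a fit without the trend, the library letter as a block and each library left out, and, chosen after seeing the data, both GFP libraries A and B left out.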

Additional observations from a re-analysis of the deposited data

How the results depend on the processing

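The count of MARCH genes whose groups did not overlap was 5, and 7 with equal totals, median-ratio factors or quantile normalization, where MARCH6 and MARCH7 joined as higher in TEADi. It was 5 to 6 with 1 library left out, 6 without GFP libraries A and B, and 4 with a filter of 5 CPM, which MARCH9 did not pass. The log2 fold change of MARCH4 ran from -4.40 (pseudocount of 0.1) to -2.81 (pseudocount of 5), that of MARCH3 from -1.77 to -1.12, that of MARCH2 from 0.47 to 1.05 and that of MARCH9 from 0.38 (pseudocount of 5) to 1.02 (without GFP libraries A and B) over all alternatives. With all libraries limma called 8299 genes, and with 1 library left out it called 7425 to 8148. Calls among the 147 list genes numbered 90 with all libraries and 82 to 93 with 1 left out. These are totals of each fit, and how many of the first calls were kept is not given. In the fit without GFP libraries A and B the lone GFP library is assumed to vary like the TEADi libraries. Of 37 list genes followed under 17 alternatives, 7 results lost their call (MAVS, PARK2 and PDCD6IP, above), and 0 of those called changed direction. With median-ratio factors 45 list genes were higher and 49 lower, and with quantile normalization 46 were higher and 45 lower. With the replicate block 8232 genes and 86 list genes were called. The letters were not used as pairs, since the deviations of same-lettered libraries had correlations of 0.08, -0.06 and -0.02 across genes. The scale of MARCH2 and MARCH9, at 28 to 58 times the smallest value in GFP libraries, limits the precision of their folds. The same limit holds for the fold of MARCH4, which was at 23 to 31 times the smallest value in TEADi libraries.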

Other observations

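MARCH1, the relative of MARCH8 known from antigen-presenting cells, barely passed the filter and was not among the genes followed above. It stood at 0.518, 0.288 and 1.09 CPM in TEADi libraries A, B and C, against 1.19, 1.14 and 1.31 CPM in GFP libraries. The similarly named MARC1 and MARC2, which encode mitochondrial amidoxime reductases and belong to another family, averaged 0.391 ± 0.237 and 2.55 ± 0.346 CPM in TEADi, against 0.572 ± 0.161 and 3.30 ± 0.469 CPM in GFP (SD, n = 3 each). MARCH10 and MARCH11 were not analysed here.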
